A study of Mus musculus with 18 samples.

Results

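The 9 genes described here encode peptidases of the brush border, the layer of microvilli through which enterocytes of the small intestine take up nutrients: Anpep, Enpep, Xpnpep2, Dpp4, Ace, Mep1a, Mep1b, Naaladl1 and Ggt1. They were taken as a named list and found by symbol among the 47729 gene identifiers of each table, and all 9 were among the 15572 genes that passed the filter on low counts. RNA was sequenced from sorted epithelial cells of the mouse ileum, with 6 libraries of lactating females at day 7, 6 of virgin males and 6 of virgin females, and the virgin mice were matched to the lactating ones for age. The mice of all groups were fed standard chow, RM3 while breeding and RM1 otherwise. Strain, age and sorting gate are not given in these sources. The labels leave it unsaid whether each library is a separate animal, so the p-values speak of the spread among these libraries, which may be technical.

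Dietary protein reaches the ileum as peptides that pancreatic enzymes have left, and peptidases anchored in the microvillus membrane cut them further, so that amino acids and very short peptides can enter through transporters. Each enzyme of the set has its own cut. Some remove residues from the front of a peptide, some remove dipeptides from the front or the back, and some cut within the chain. In the small intestine these enzymes belong to the differentiated absorptive cells of the villus, and dividing cells of the crypt carry little of them.

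Promoter sequences are shown because the 9 transcripts moved together from library to library, as described below. The RefSeq promoters of build GRCm38.p6 cover 250 bases before and 50 bases after a start. Naaladl1 had no entry among them, and Mep1b was left out of the search. The other 7 of the 9 genes had 11 promoters. They were searched on both strands for short motifs of 4 kinds of factor that intestinal epithelium uses: CAAAGT for HNF4, AGATAA for factors of the GATA family, CATAAA for CDX2 and GTTAAT for HNF1. The last 150 bases before the start follow for 5 genes, the 4 with a match and Anpep. They are printed 5′ to 3′ on the gene's own strand, with the matches in capitals. They lie at chr2:62412232-62412381 (Dpp4, minus strand), chr17:43502774-43502923 (Mep1a, minus strand), chr10:75563982-75564131 (Ggt1, plus strand, the first of its 4 listed starts), chr11:105967798-105967947 (Ace, plus strand, the first of its 2) and chr7:79848211-79848360 (Anpep, minus strand).
Dpp4: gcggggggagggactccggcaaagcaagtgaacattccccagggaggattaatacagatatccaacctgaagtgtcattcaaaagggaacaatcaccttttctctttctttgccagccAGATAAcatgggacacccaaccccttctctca
Mep1a: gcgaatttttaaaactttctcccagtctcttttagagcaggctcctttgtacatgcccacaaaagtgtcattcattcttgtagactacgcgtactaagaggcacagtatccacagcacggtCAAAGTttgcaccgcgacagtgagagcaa
Ggt1: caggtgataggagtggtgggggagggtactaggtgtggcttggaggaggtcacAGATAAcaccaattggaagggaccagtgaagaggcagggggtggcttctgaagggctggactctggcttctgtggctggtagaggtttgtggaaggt
Ace: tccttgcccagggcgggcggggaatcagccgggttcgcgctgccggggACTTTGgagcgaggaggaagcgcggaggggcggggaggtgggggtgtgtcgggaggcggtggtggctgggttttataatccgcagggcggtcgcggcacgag
Anpep: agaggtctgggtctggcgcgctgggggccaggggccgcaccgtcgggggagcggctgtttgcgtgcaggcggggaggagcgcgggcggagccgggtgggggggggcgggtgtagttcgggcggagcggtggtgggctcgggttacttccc
Dpp4 and Ggt1 hold the GATA letters at bases -32 and -97 from the start. Mep1a holds the HNF4 letters at base -29, and Ace holds them on the opposite strand at base -102. Mep1a also holds the CDX2 letters on the opposite strand at bases 14 to 19 from the start, past the stretch printed. Anpep, the most abundant of the 9, holds none of the 4 motifs in the 300 bases of its only listed start. That start lies inside the annotated gene, which runs to base 79861059 on the minus strand. The bases before that end were not searched. The printed start of Ggt1, at base 75564132, also lies inside the annotated gene, which begins at base 75561604 on the plus strand. Enpep and Xpnpep2, which are not printed, hold none of the 4 motifs either. Counting all windows of these 7 genes, 6 of the 11 promoters held a match to any of the 4 motifs, against 35.7% of all 32851 promoters of the same length. This count does not cover the full set of 9 genes. Singly, the HNF4 letters occurred in 14.4% of all promoters, CDX2 in 11.9%, GATA in 11.2% and HNF1 in 7.1%. The shares are those of common short words, the matches are descriptions of letters, and counts per gene do not tell which start was used.

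Library totals lay between 34577104 and 49039300 counts. The sorted cells carried the epithelial genes Epcam (1504 to 3165 CPM over all libraries) and Vil1 (1825 to 4980 CPM), where CPM stands for counts scaled to the size of the library. Cell types outside the epithelium also make some of these peptidases: lymphocytes Dpp4, endothelium Ace, myeloid cells Anpep and pericytes Enpep. Most of their defining genes were at or near 0. Ptprc of leukocytes reached at most 0.373 CPM, Pecam1 of endothelium 0.491 CPM, Cdh5 of endothelium 0.0229 CPM and Rgs5 of pericytes 0.145 CPM. The summed levels of these marker lists were low as well, at 0.714 to 6.38, 0.666 to 1.66 and 0.735 to 3.38 CPM for 12 lymphocyte genes in lactating females, virgin males and virgin females, and 1.01 to 2.44, 0.943 to 2.97 and 1.15 to 2.38 CPM for 10 endothelial genes, of which Emcn was at 0 in all 18 libraries. The 12 myeloid genes summed to 27.7 to 35.5, 21.9 to 57.5 and 18.1 to 54.8 CPM, of which Itgam held 2.86 to 10.8, 4.87 to 6.95 and 2.91 to 6.66 CPM. Lyz2 was the most abundant of them, with means of 14.3 (SD 4.85), 27.2 (SD 14.5) and 21.6 CPM (SD 12.9) in the same order of groups. Cd14 came next, with means of 8.5, 5.4 and 4.9 CPM. The part of these genes in the results on the peptidases was not tested. The 12 genes of fibroblasts, pericytes and muscle summed to 4.81 to 14.0, 4.83 to 7.71 and 7.13 to 13.7 CPM, of which Pdgfrb held 4.45 to 12.8, 4.58 to 7.10 and 6.46 to 13.3 CPM, and Lum was at 0 in all 18. Pdgfrb had a log2 fold change of -0.66 in males over virgin females (edgeR adjusted p = 0.565), and its part in the results on the peptidases was not tested. Libraries virgin female 2 and virgin male 6 stood apart through Gm42418, a transcript that overlaps ribosomal RNA, which reached 31048 and 29981 CPM there.

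The peptidases were among the more abundant messages of the sorted cells. Of the 15572 genes tested, they held ranks 6 to 223 by CPM and 39 to 517 per kilobase of merged exons. Summed over the 9 genes, the level had a mean of 19206 CPM (SD 4264) in the 6 lactating libraries. The mean sum was 12839 CPM (SD 2713) for the 6 virgin males and 20509.5 CPM (SD 7164) for the 6 virgin females. These sums are on the TMM scale described under the processing and are not shares of the raw counts. Anpep, aminopeptidase N, which releases neutral residues from the front of peptides, averaged 8135 CPM over the 18 libraries. It was the 6th most abundant of all genes tested by CPM and the 39th per kilobase. Per kilobase of merged exons, the scale on which genes can be compared with each other, Anpep stood at 1967 CPM per kilobase, followed by Naaladl1 at 1130, Mep1b at 546, Enpep at 356, Mep1a at 246, Ggt1 at 160.5, Ace at 139, Dpp4 at 122 and Xpnpep2 at 114. The top of this order did not vary: Anpep exceeded Naaladl1, Naaladl1 exceeded Mep1b and Mep1b exceeded Enpep in 18 of 18 libraries. Enpep exceeded Mep1a in 17 libraries, all but lactating 1, and Mep1a exceeded Ggt1 in 17, all but lactating 3. At the bottom the neighbours did not separate beyond their spread. Ggt1 exceeded Ace per kilobase in 13 libraries, Ace exceeded Dpp4 in 12 and Dpp4 exceeded Xpnpep2 in 11. Ggt1 lay above Ace in 6 of 6 lactating females, 5 of 6 virgin males and 2 of 6 virgin females.

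**Figure D1:**
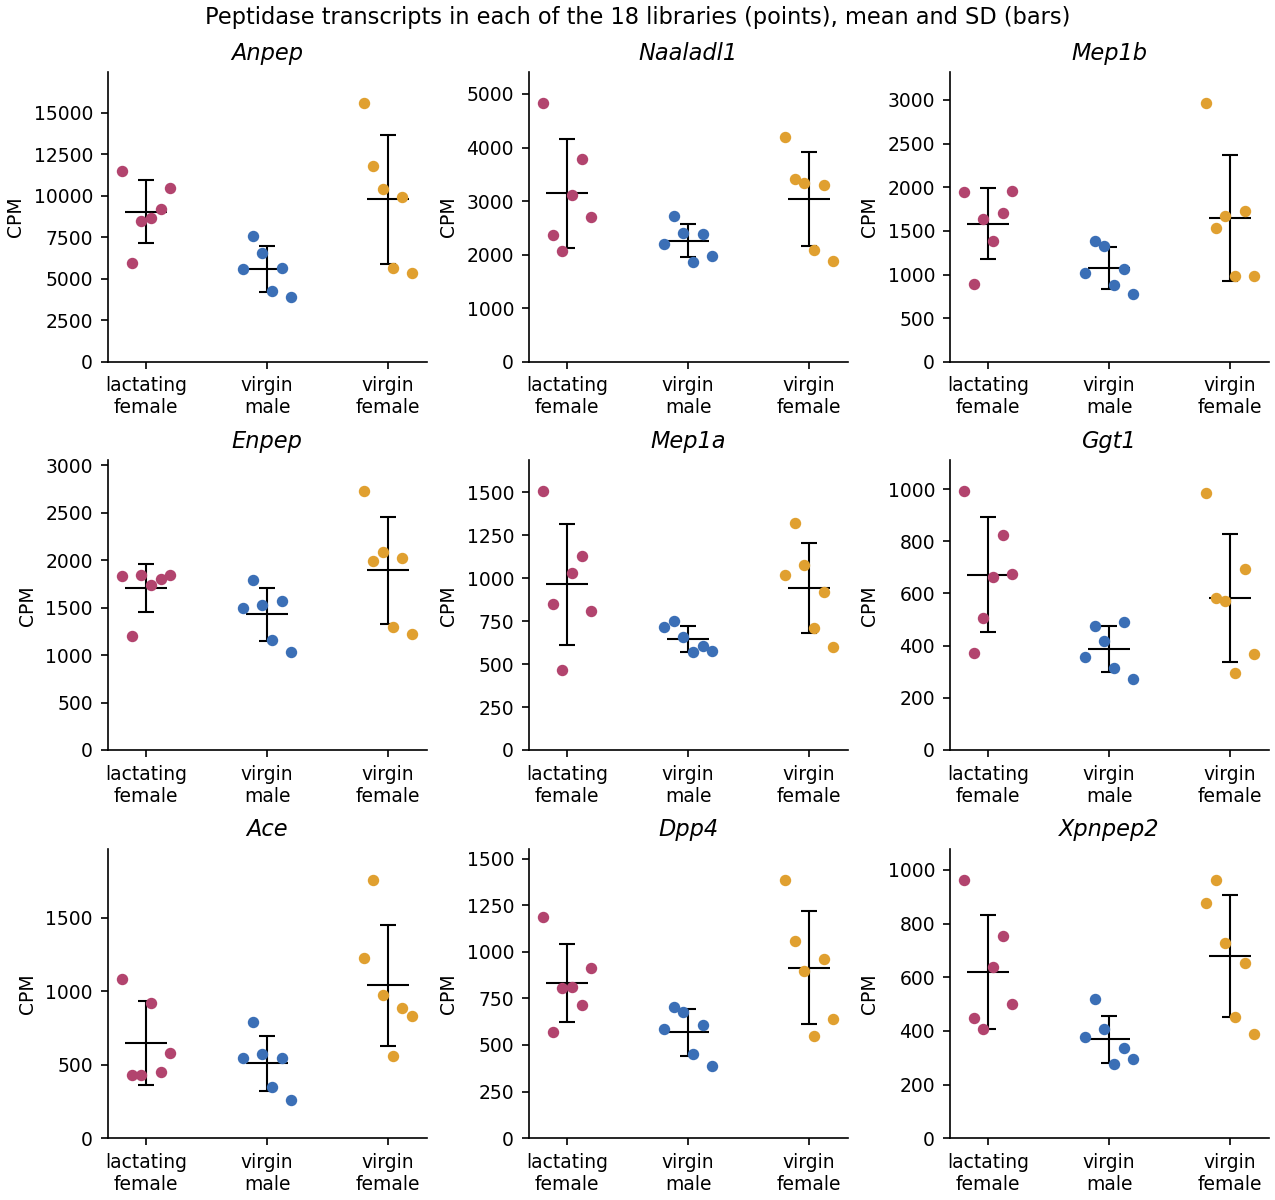
Level of each of the 9 peptidase genes in CPM (vertical axes from 0), with 1 point per library and the mean and SD of each group of 6 as bars. Virgin males lie low, as for Anpep at 3919 to 7574 CPM, and their range overlaps those of lactating and virgin females in every panel. Virgin females spread more widely than males in every panel, and so do lactating females except for Enpep.

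Among the aminopeptidases, Anpep (ENSMUSG00000039062, chr7:79821803-79861059 of GRCm38) had a lowest value of 5951, a median of 8938 and a highest of 11484 CPM in lactating females, against 3919, 5629 and 7574 CPM in virgin males and 5364, 10146 and 15564 CPM in virgin females. Lactating and virgin females overlapped over most of their ranges, and 5 of the 6 lactating libraries lay above every male. Xpnpep2 (ENSMUSG00000037005, chrX:48108725-48136981), the membrane-bound aminopeptidase P that removes a residue ahead of proline, had 407, 570.1 and 963 CPM in lactating females, against 276, 356 and 519 CPM in virgin males and 388, 691 and 964 CPM in virgin females. It was the least abundant of the 9 per kilobase, and 4 of 6 males lay below every virgin female. Enpep (ENSMUSG00000028024, chr3:129269175-129332720), aminopeptidase A, which releases acidic residues and also trims angiotensin II, had 1200, 1815 and 1844 CPM in lactating females, against 1029, 1512 and 1787 CPM in virgin males and 1223, 2008 and 2725 CPM in virgin females. Enpep had the lowest biological coefficient of variation of the 9, 0.237, against a median of 0.224 over all genes tested. Between its lowest and highest library it ranged by 2.65 times, and Naaladl1 by 2.58 times.

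The enzymes that remove dipeptides were Dpp4 and Ace. Dpp4 (ENSMUSG00000035000, chr2:62330073-62412231), which cuts after a proline or alanine in the next-to-front position and inactivates incretin hormones, had 568, 806 and 1185 CPM in lactating females, against 385, 599 and 703 CPM in virgin males and 547, 929 and 1387 CPM in virgin females. Ace (ENSMUSG00000020681, chr11:105967945-105989964), angiotensin-converting enzyme, which takes dipeptides from the back end, had 429, 515 and 1082 CPM in lactating females, against 260.2, 547 and 791 CPM in virgin males and 556, 932 and 1760 CPM in virgin females. Ace ranged most widely of the 9, by 6.76 times between virgin male 6 and virgin female 2, the 2 libraries with very high Gm42418. Its coefficient of variation of 0.369 was the highest of the set.

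Mep1a (ENSMUSG00000023914, chr17:43474324-43502812) and Mep1b (ENSMUSG00000024313, chr18:21061923-21100199) encode the alpha and beta subunits of meprin, a metalloprotease that cuts within chains. Meprin beta spans the membrane, and meprin alpha stays at the cell surface by pairing with it. Mep1a had 463, 941 and 1505 CPM in lactating females, against 569.5, 633 and 753 CPM in virgin males and 599, 968 and 1321 CPM in virgin females. Mep1b had 887, 1665 and 1959 CPM in lactating females, against 776, 1039 and 1381 CPM in virgin males and 979, 1604 and 2961 CPM in virgin females. The 2 subunits did not keep a fixed proportion. Per kilobase, Mep1a stood at 0.216 to 0.728 times Mep1b in lactating females, 0.378 to 0.566 times in virgin males and 0.261 to 0.655 times in virgin females. Lactating 3 was the extreme case, with 463 CPM of Mep1a, the lowest of all 18 libraries, beside 1630 CPM of Mep1b.

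Naaladl1 (ENSMUSG00000054999, chr19:6105782-6115792), a relative of glutamate carboxypeptidase II, had 2061, 2905 and 4826 CPM in lactating females, against 1872, 2301 and 2731 CPM in virgin males and 1881, 3319 and 4198 CPM in virgin females. Ggt1 (ENSMUSG00000006345, chr10:75561604-75586200), gamma-glutamyltransferase, which opens the gamma-glutamyl bond of extracellular glutathione, had 373, 669 and 991 CPM in lactating females, against 270.4, 388 and 489 CPM in virgin males and 297, 575 and 985 CPM in virgin females. For both genes the 3 groups overlapped, and the highest library was lactating 1. Exons of Dpp4 and Ace share 232 and 295 bases with annotated antisense genes, which had 1 and 164 counts in total over the 18 libraries.

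Lactating females, which feed young, were first set against virgin females. Breeding mice had another chow, so diet and lactation cannot be told apart here. None of the 9 passed the test, in which a gene was called at a Benjamini-Hochberg adjusted p under 0.05 in edgeR's quasi-likelihood model of all 18 libraries. That test called 0.0578% of all genes tested. On the log2 scale the fold changes ran from -0.68 to 0.21 with a median of -0.11, against a median of -0.003 over all genes, and 6 of the 9 were negative. The largest was that of Ace, with means of 649 ± 284 CPM in the lactating libraries and 1040 ± 414 CPM in those of virgin females (SD over 6 libraries each). Its log2 fold change was -0.68 (SE 0.31, 95% interval -1.32 to -0.04, edgeR adjusted p = 0.74). Ace was below the virgin female mean in 5 of 6 lactating libraries, and 3 of them lay below every virgin female. It was the 1 member with an unadjusted p under 0.05, against 3.04% of all genes that were lower at that threshold. Without virgin female 2 and virgin male 6 the lowest of the 9 fold changes was -0.47.

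For the other 8 genes the intervals bounded the difference between the female groups. Anpep averaged 9036 ± 1898 CPM in the lactating libraries and 9779 ± 3861 CPM in those of virgin females, a log2 fold change of -0.11 (95% interval -0.65 to 0.42). Ggt1 averaged 672 ± 220 CPM in the lactating libraries and 583 ± 246 CPM in those of virgin females, a log2 fold change of 0.21 (-0.35 to 0.76). Dpp4 had a log2 fold change of -0.14 (-0.60 to 0.32), Enpep of -0.15 (-0.55 to 0.26) and Xpnpep2 of -0.13 (-0.64 to 0.38). Mep1a stood at 0.04 (-0.44 to 0.51), Mep1b at -0.05 (-0.58 to 0.47) and Naaladl1 at 0.05 (-0.41 to 0.51). The intervals do not show that the levels were equal.

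**Figure D2:**
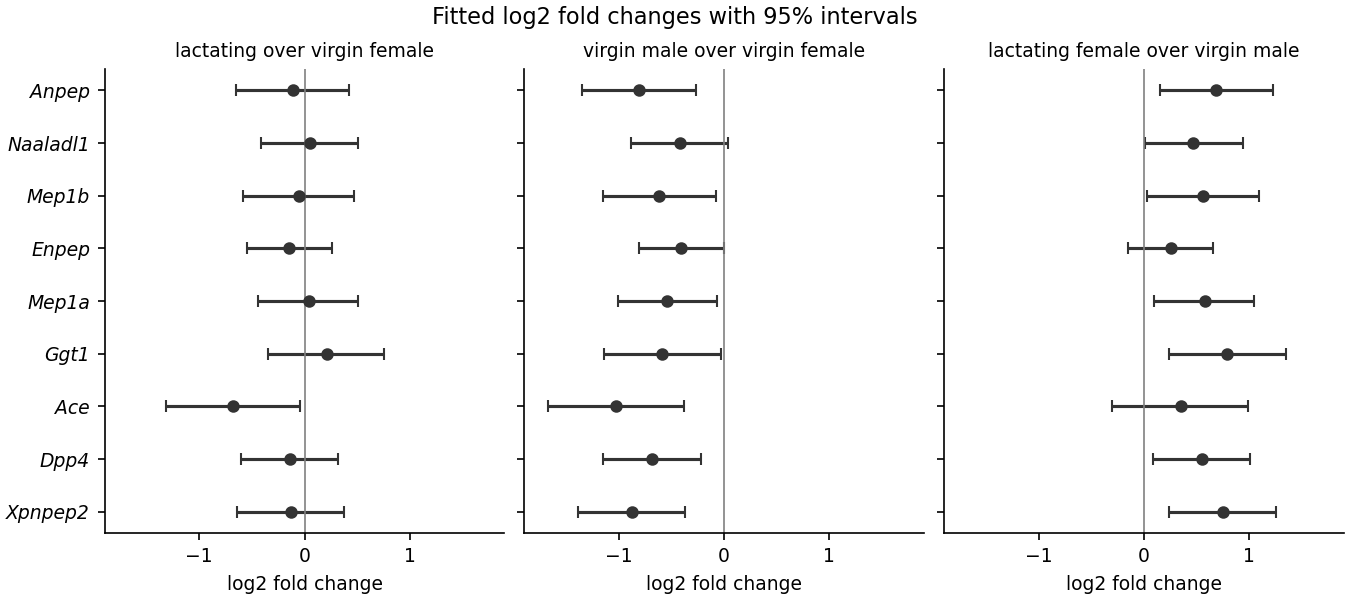
Fitted log2 fold changes of the 9 peptidase genes (points) with 95% intervals (bars) for lactating over virgin females, virgin males over virgin females, and lactating females over virgin males. All 9 points lie below 0 for males over virgin females (-1.03 to -0.41) and above 0 for lactating females over males (0.26 to 0.79), and the third panel shares its libraries with the other panels.

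Virgin males had lower mean levels than virgin females for all 9 genes, without a call at an adjusted p under 0.05. The log2 fold changes ran from -1.03 to -0.41 with a median of -0.62, against a median of -0.013 over all genes tested, and in each of the 9 genes 6 of 6 males lay below the virgin female mean. The adjusted p was 0.565 for every one of them in edgeR's test, which called 0.0835% of all genes. At an unadjusted p under 0.05, 8 of the 9 were lower in males, against 6.02% of all genes. The 9 genes vary together, so these are not 8 separate results. DESeq2 and limma's voom with quality weights also called 0 of the 9, with 9 of 9 lower at an unadjusted p under 0.05 in each, against 7.0% of all genes with DESeq2 and 8.99% with voom. The lowest adjusted p-values of the 9 were 0.136 with DESeq2 and 0.2 with voom. The 6 males and the 6 virgin females overlapped for each of the 9 genes, and 0.43% of all genes had groups that did not overlap. For lactating against virgin females and for lactating females against males each of the 9 genes overlapped too, beside 0.289% and 1.34% of all genes that did not.

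Ace showed the largest difference between males and virgin females, with 511 ± 187 CPM in virgin males, against 1040 ± 414 CPM in virgin females (SD over 6 libraries each), and a log2 fold change of -1.03 (SE 0.31, edgeR adjusted p = 0.565). Xpnpep2 averaged 368 ± 88.4 CPM in virgin males and 678 ± 228 CPM in virgin females, a log2 fold change of -0.88 (SE 0.24), and 4 of 6 males lay below every virgin female for Ace and for Xpnpep2. Anpep averaged 5591 ± 1378 CPM in virgin males and 9779 ± 3861 CPM in virgin females, a log2 fold change of -0.81 (SE 0.26). Dpp4 followed at -0.69, Mep1b at -0.62, Ggt1 at -0.59, Mep1a at -0.54, Naaladl1 at -0.42 and Enpep at -0.41. Xpnpep2 is the 1 X-linked gene of the set. Without virgin female 2 and virgin male 6 the 9 fold changes ran from -0.70 to -0.31, and 4 of 9 were lower at an unadjusted p under 0.05, against 1.73% of all genes. Ace was no longer the largest there, at -0.68, beside -0.70 for Xpnpep2 and -0.66 for Anpep.

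Lactating females differ from virgin males in sex, reproductive state and the chow given for breeding together. The comparison reuses the libraries of the others. Here too no member was called, against 0.764% of all genes, and the log2 fold changes ran from 0.26 to 0.79 with a median of 0.56, against -0.008 over all genes. Ggt1 averaged 672 ± 220 CPM in lactating females, against 388 ± 87.7 CPM in virgin males (SD over 6 libraries each), a log2 fold change of 0.79 (SE 0.27, edgeR adjusted p = 0.188), with 5 of 6 lactating libraries above every male. Xpnpep2 stood at 0.75 (SE 0.24, adjusted p = 0.178) and Anpep at 0.69 (SE 0.26, adjusted p = 0.223). At an unadjusted p under 0.05, 7 of the 9 were higher in lactating females, against 10.5% of all genes, and Ace and Enpep were not. The test for any difference among the 3 groups called 0 of the 9, against 0.462% of all genes. Its lowest adjusted p was 0.257, for Xpnpep2, and 6 of the 9 had an unadjusted p under 0.05, against 10.9% of all genes.

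The libraries of a group differed in their level of cell cycle transcripts, which dividing crypt cells carry. In bulk RNA, fewer cells of a type and less RNA per cell cannot be told apart. The level was followed with a cell cycle score, the mean log2 CPM of 37 cell cycle genes, none of them a peptidase of the set, centred on its mean over the libraries. The score averaged -0.11 ± 0.60 in lactating females, 0.28 ± 0.17 in virgin males and -0.17 ± 0.57 in virgin females (SD, n = 6 each), and males covered the narrow range of 0.07 to 0.52. All 37 cell cycle genes had positive fold changes in males over virgin females, with a median of 0.36 and 0 called. All 13 enterocyte markers had negative ones, with a median of -0.60 and 0 called, beside the median of -0.62 for the 9 peptidases.

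Within groups, all 9 peptidases fell with the score. In a model with a mean per group and 1 slope, 9 of 9 had a negative slope that passed the test, against 22.1% of all genes that were called negative and 44.1% called in either direction. The slope, the change in log2 level for each unit of the score, had a median of -0.76, against -0.003 over all genes tested. Ggt1 had the steepest at -0.96 (SE 0.11, edgeR adjusted p = 2.06e-06), so that 1 unit more of the score went with 51.6% of the level. Xpnpep2 had -0.79 (SE 0.12, adjusted p = 6.77e-05), Ace -0.77 (SE 0.22, adjusted p = 0.00915), Mep1b -0.76 (SE 0.16, adjusted p = 0.000777), Anpep -0.76 (SE 0.15, adjusted p = 0.000617) and Naaladl1 -0.73 (SE 0.09, adjusted p = 9.43e-06). Dpp4 had -0.66 (SE 0.13, adjusted p = 0.000406) and Mep1a -0.62 (SE 0.14, adjusted p = 0.00204). Enpep had the shallowest at -0.51 (SE 0.13, adjusted p = 0.00454). The score and the levels come from the same libraries and the same totals.

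**Figure D3:**
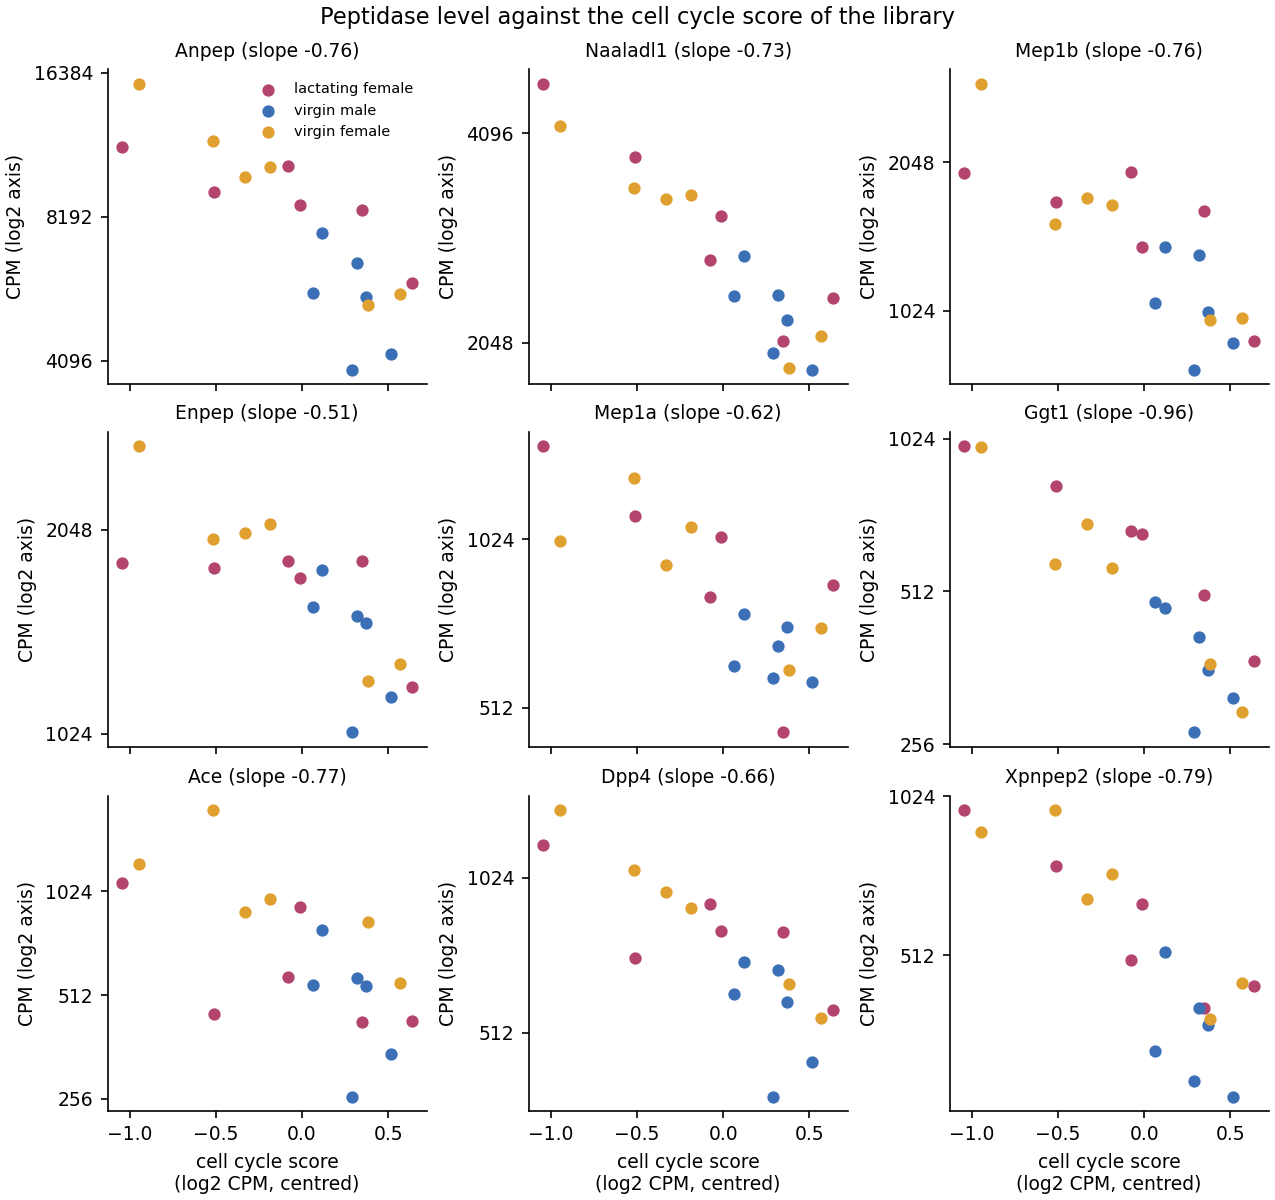
Level of each peptidase gene (vertical axis, CPM on a log2 scale) against the cell cycle score of the library (horizontal axis), with 1 point per library in the colour of its group. Levels fall from left to right in all 9 panels, with slopes of -0.96 (Ggt1) to -0.51 (Enpep) within groups, and the 6 males sit in the right part of each panel, at scores of 0.07 to 0.52.

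The slope was also fitted in each group alone. In virgin females alone 7 of 9 were called, against 11.7% of all genes called negative there, and the slopes ran from -1.02 to -0.54. In lactating females alone 2 of 9 were called, Ggt1 and Xpnpep2, against 4.73% of all genes, and the slopes ran from -0.80 to -0.23. In males alone, 0 of the 9 and 0 of all genes were called by edgeR, with 1 of the 9 negative at an unadjusted p under 0.05, against 5.56% of all genes, and the slopes ran from -1.97 to -0.36 over that narrow range. Whether the slopes differ between the groups was not tested. Without lactating 1 and virgin female 1, the libraries farthest from the median score, 8 of 9 remained called, against 16.0% of all genes called negative, and Ace stood at -0.87 (edgeR adjusted p = 0.054). With a villus tip score in its place the 9 slopes were positive, at 0.28 to 0.60, and 9 of 9 were called, against 16.3% of all genes called positive.

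With the cell cycle score as a covariate the differences between virgin males and virgin females were smaller. The median of the 9 log2 fold changes was -0.23 with the score, beside -0.62 without it, and all 9 remained negative. Ggt1 stood at -0.07 and Naaladl1 at -0.05, against -0.59 and -0.42 without the score. Ace stood at -0.64 (SE 0.26), Xpnpep2 at -0.47 (SE 0.15) and Anpep at -0.39 (SE 0.18), and these 3 had been the largest without it. With the score, 4 of the 9 were lower at an unadjusted p under 0.05, against 1.39% of all genes, and 0 were called. The villus tip score as the covariate gave a median of -0.44. In lactating over virgin females that covariate took Ace to -0.93 (edgeR adjusted p = 0.0924).

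**Figure D4:**
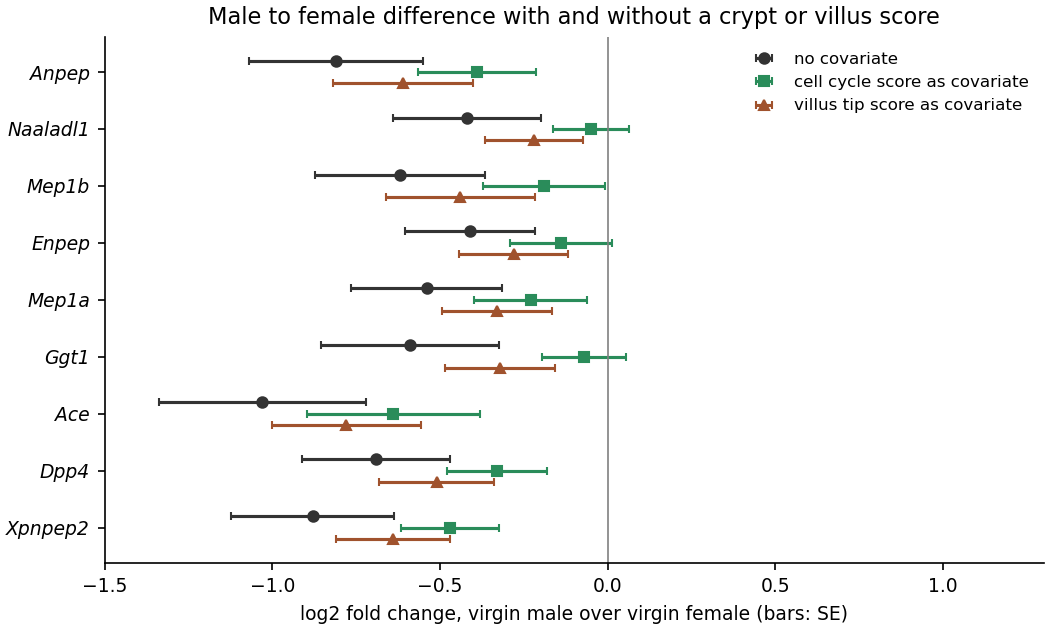
Log2 fold change of virgin males over virgin females (points, with SE as bars) for each peptidase gene, without a covariate, with the cell cycle score and with the villus tip score as covariate. With the cell cycle score Naaladl1, Ggt1 and Enpep come within 1 SE of 0, while Ace stays the lowest at -0.64.

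The 9 transcripts varied together over the 18 libraries. Over the 36 pairs of genes, Pearson's r of log2 CPM ran from 0.57 to 0.97 with a median of 0.84, where all values share libraries and depth. Anpep and Dpp4 were the most alike pair (r = 0.97), and Mep1a was least like Mep1b and Enpep (r = 0.57 for each). After group means and the cell cycle score were taken out, r ran from -0.40 to 0.93, and the genes parted in a way that was picked out after the values were seen. Anpep, Dpp4, Mep1b, Enpep and Ggt1 had r of 0.68 to 0.93 among themselves. Mep1a, Naaladl1 and Xpnpep2 had r of 0.76 to 0.82 among themselves, and -0.40 to 0.48 with the genes of the other group. Ace had 0.15 to 0.67 with the rest. The meprin subunits thus stood in different groups, with r = -0.40 between them. The 18 libraries behind this r include lactating 3, the extreme case for the ratio of the subunits.

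**Figure D5:**
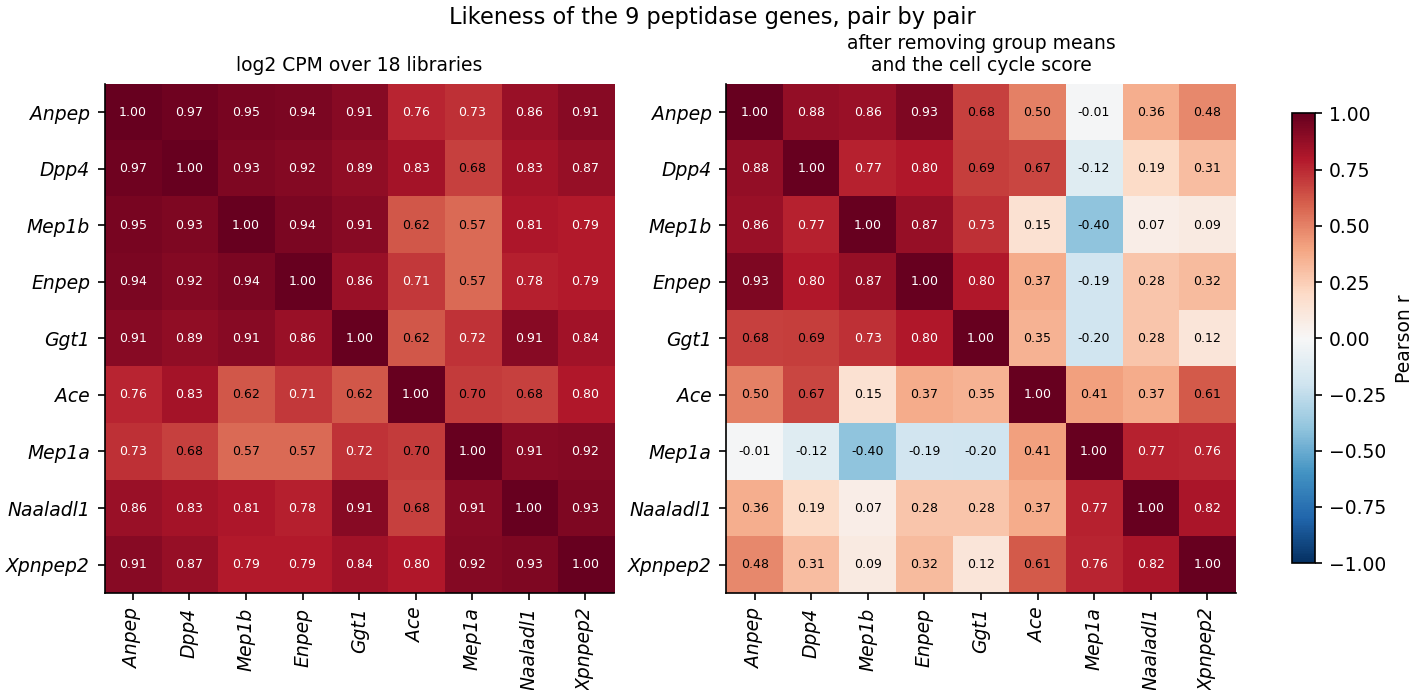
Pearson's r between each pair of the 9 peptidase genes over 18 libraries, from log2 CPM (left) and after group means and the cell cycle score were removed (right), with colour and printed value for r. On the left all pairs are at 0.57 or above. On the right 2 blocks remain, Anpep to Ggt1 and Mep1a to Xpnpep2, and Mep1a with Mep1b is at -0.40.

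Each peptidase was set beside 9399 other genes with a mean of at least 5 CPM, and up to 3 of those with the highest r over the 18 libraries are given. For Anpep these were Lap3 (r = 0.981), which encodes the cytosolic leucine aminopeptidase, Slc7a7 (0.973), a subunit of the basolateral carrier of cationic amino acids, and Pls1 (0.97), an actin-bundling protein of the microvillus. For Ggt1 they were Aplp1 (0.985), Slc7a9 (0.984), a subunit of the apical cystine carrier, and Slc9a3r1 (0.978), a scaffold of the microvillus membrane. Those of Xpnpep2 included Pdk2 (0.966) and the peptide transporter gene Slc15a1 (0.951). Naaladl1 was most like Pdzk1 (0.969), a scaffold of apical transporters, Bst1 (0.966) and Pigc (0.966). Ace was most like Asah2 (0.955), the neutral ceramidase of the brush border, Creb3l2 (0.953) and Sec14l1 (0.943). Mep1b was closest to Rnf115 (0.981), Enpep to Tesk2 (0.962) and Mep1a to Plpp5 (0.931).

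Genes that act beside these enzymes were counted from named lists, to be read against the 22.1% of all genes that fell with the cell cycle score and the 22.0% that rose. Of 12 other surface peptidases tested, 5 fell with the cell cycle score and 2 rose. They included Dpep1, a surface dipeptidase, at -0.81 (edgeR adjusted p = 1.59e-06) and Mme, neprilysin, at -0.99 (edgeR adjusted p = 0.000768), and the median of the 12 slopes was -0.24. Of 19 cytosolic peptidases, which finish the cutting inside the cell, 6 fell and 3 rose, with a median of -0.09, so that their counts lay near the shares over all genes. Lap3 stood at -0.81 and Pepd, prolidase, at -0.92. Of 16 transporters of peptides and amino acids, 8 fell and 3 rose, with a median of -0.55. Slc15a1 stood at -0.95 and Slc6a19, the apical carrier of neutral amino acids, at -1.09. Of 9 partner proteins of the transporters and anchors, 4 fell and 1 rose, with a median of -0.40.

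Other genes of the brush border were read against the same shares. Of 11 other hydrolases of the brush border 9 fell, with a median slope of -0.95, and Lct, lactase, stood at -1.01 (edgeR adjusted p = 0.0117). The sugar-cutting enzymes Sis (slope -0.30, adjusted p = 0.107) and Mgam (slope -0.08, adjusted p = 0.678) did not pass. Of 20 genes of microvillus structure 16 fell, with a median of -0.57. Of 18 enterocyte transcription factors 4 fell, a share like that over all genes, and 2 rose, and Hnf4a (slope -0.11, adjusted p = 0.279) did not pass. None of the genes in these 7 lists was called in lactating over virgin females, virgin males over virgin females or lactating females over virgin males. Their median log2 fold changes in males over virgin females were -0.10 for other surface peptidases, -0.04 for cytosolic peptidases, -0.43 for transporters, -0.21 for partner proteins, -0.52 for other hydrolases, -0.37 for microvillus structure and -0.07 for transcription factors, beside -0.62 for the 9 brush border peptidases.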

How the data were processed

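Poly(A) RNA of sorted ileal epithelium was made into directional libraries, per the labels' protocols. The authors deposited 1 table of raw counts per gene for each of the 18 libraries. The submitters' processing notes name FastQC 0.11.5, HISAT2 2.0.4, featureCounts (Subread 2.0.0), DESeq2 1.24.0 and the genome build GRCm38. Which annotation, strand setting and rule for multiply mapped reads were used is not given in these sources. If strand was not used, reads of a gene and of its antisense neighbour would be counted together. Symbols and coordinates came from GENCODE M21, which held 47310 of the 47729 identifiers, and 0 rows named no gene.

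The filter on low counts was edgeR's filterByExpr (version 4.0.16, in R 4.3.3), 15572 genes passed, and libraries were scaled by TMM. CPM values are on that scale, and log2 CPM uses a prior count of 2. A single quasi-likelihood fit to the 18 libraries had 1 mean for each group, and p-values were adjusted by Benjamini-Hochberg over all genes. SE is the absolute fold change over the square root of F. All adjusted p-values come from edgeR unless another tool is named. A count of 3, the floor, corresponds to 0.0612 to 0.0868 CPM, far below the 9 genes, and covers counting error only, since reads had no molecular identifiers. Of 153 pairs of libraries none agreed within sampling noise, so 18 samples were counted. Chi-square over degrees of freedom was at least 66.4 inside groups and at least 35.55 between groups, so the most alike pair came from different groups. The model was tested on simulated data.

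The 9 genes, the 7 lists and the marker lists were chosen with earlier results of these data known. The text names all 9 members, from other lists genes among the 4 most abundant or called ones, and for each member up to 3 genes with the highest r. Some genes that this rule takes are not reported here. Alternatives were size factors and the test of DESeq2 1.42.0, voom with quality weights (limma 3.58.1), no filter, the 2 groups alone, a replicate block, score covariates and leaving libraries out. Slopes within single groups and without the 2 libraries of extreme score were added after seeing the data.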

Additional observations from a re-analysis of the deposited data

Results flagged for a closer look

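Enpep in lactating 2 stood apart from its group: it was at 1200 CPM, against 1736 to 1844 CPM in the other 5 lactating libraries, a gap that exceeds Dixon's 95% critical value of 0.625 for 6 samples. This was the 1 flag among 36 groups of 6 values looked at, of the 9 genes and of 3 ratios between them, and chance flags about 1 in 20 groups. Lactating 2 also had the highest cell cycle score of the 18 libraries, 0.64. Its part in the low Enpep value was not tested.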

How the results depend on the processing

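No alternative called any of the 9 peptidases in the 3 comparisons or in the test for any difference, and all 9 fold changes of males over virgin females stayed negative in all 27 alternatives. Some came close to the threshold. The lowest adjusted p was 0.0511 for any difference (Xpnpep2, DESeq2's test) and 0.0659 for lactating females over males (Ggt1, edgeR without lactating 2). It was 0.0924 for lactating over virgin females (Ace, edgeR with the villus tip score) and 0.136 for males over virgin females (Xpnpep2, DESeq2's test). Near 0, signs turned in lactating over virgin females. With voom Mep1a stood at -0.10, Mep1b at 0.02 and Naaladl1 at -0.06. With the cell cycle score as covariate Anpep was at 0.01 and Mep1b at 0.07, and with the villus tip score Mep1a was at -0.17, Naaladl1 at -0.15 and Ggt1 at -0.03. Leaving out 1 library each time gave -0.24 to 0.07 for Anpep, -0.26 to 0.02 for Dpp4, -0.14 to 0.18 for Mep1a, -0.17 to 0.20 for Mep1b and -0.12 to 0.16 for Naaladl1. In lactating females over males, Ace turned to -0.15 with the villus tip score. The cause was not tested.

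Counts over all genes moved more. Lactating over virgin females had 9 calls, against 69 with DESeq2's test, 2 with voom, 1 with the 2 groups alone, 61 and 22 with the cell cycle and villus tip scores, 1 without virgin female 2 and virgin male 6, and 2 to 16 when 1 library was left out, the highest without lactating 3. Males over virgin females had 13, against 30 with DESeq2, 20 with voom, 20 with no filter and 10 to 18 when 1 library was left out. Lactating females over males had 119, against 410 with DESeq2, 217 with voom, 62 with the villus tip score, 61 without those 2 libraries and 62 to 311 when 1 library was left out, the highest without lactating 2. Any difference had 72, against 270 with DESeq2, 137 with no filter, 118 with the cell cycle score and 53 to 116 when 1 library was left out. The slope called 6863 genes, against 1417 within lactating females, 3449 within virgin females and 0 within males, with 2, 7 and 0 of the 9 peptidases. Ace was not called with the stem cell score in place (-0.56, edgeR adjusted p = 0.0688).

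Same-numbered libraries had r of -0.22 to 0.48 in their deviations from the group means. Of these pairs 7 of 18 were over 0.1, and 5 of 18 libraries correlated best with their own number. These values were not set against chance, so they cannot tell whether replicate numbers pair the samples. With the replicate block 1 gene was called in lactating over virgin females, where Mep1b stood at 0.02, and the slope called 3514 genes and 7 of the 9 peptidases, without Ace (-0.86, adjusted p = 0.0593) and Enpep (-0.49, adjusted p = 0.0695). Depth did not limit these genes, the lowest of which had 10058 counts in a library.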
